A study of Rattus norvegicus with 10 samples.

Results

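The enzymes and binding proteins of DNA methylation were examined in the messenger RNA of rat hippocampus. The members were chosen by name: Dnmt1, Dnmt3a and Dnmt3b, which write the mark; Tet1, Tet2 and Tet3, which start its removal; and Uhrf1, Mbd2 and Mbd3, which read it or belong to its reading complexes. Of these 9 genes, 5 had a row in the count matrix (Dnmt1, Dnmt3a, Tet3, Mbd2 and Mbd3), with 6 rows between them because Dnmt3a had a pair, out of 32041 rows in all. No row was matched to Dnmt3b, Tet1, Tet2 or Uhrf1, and these 4 genes are not analysed here. Rows were matched by the RefSeq identifiers listed for GRCr8, so rows of these genes under other identifiers would have been missed. All 5 counted genes passed the filter on low counts.

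The study asked whether DNA methylation changes in acquired epilepsy whatever its origin, and compared several rat models. Messenger RNA of the hippocampus was measured to judge the relevance of such changes. The samples here are from the model of focal amygdala stimulation. All 10 animals were male Sprague-Dawley rats, an outbred strain, that carried an electrode in the left lateral amygdala, implanted under isoflurane after butorphanol. The 5 sham rats (rats 1 to 5) received no current and were matched in age. The 5 stimulated rats (rats 6 to 10) received trains of 400 µA pulses at 60 Hz over 30 min to evoke status epilepticus, were given diazepam to end it, and were monitored by video EEG for the last 2 weeks. Left hippocampal tissue (dorsal by its label) holding CA3 and the dentate gyrus was taken 3 months after status epilepticus. Each library is 1 rat. Per the methods of the study, every enrolled stimulated rat had spontaneous seizures, and the time from the last seizure to tissue collection is not given for single rats.

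Methylation of cytosine in CG pairs is laid down on new sites mainly by DNMT3A and DNMT3B and is copied after replication by DNMT1, which UHRF1 brings to half-methylated DNA. TET proteins oxidise methylcytosine, and base excision repair then restores the plain base, a process in which GADD45 proteins take part and which is studied in neurons as a means of changing the mark without cell division. MBD2 binds methylated CG pairs, whereas MBD3 of mammals binds them poorly; both are alternative subunits of the NuRD chromatin remodelling complex.

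Depth and cell composition set the frame for the values. Counts summed over all rows lay between 13552309 and 24086059 in the sham rats and between 15586870 and 21642792 in the stimulated rats. Reads listed as unmapped were taken as a share of this sum and themselves together. The share was 32.8% to 37.1% in sham rats and 35.6%, 32.0%, 41.4%, 42.9% and 45.1% in rats 6 to 10, so rats 8, 9 and 10 were above all sham rats. The listed markers of neurons were detected in every rat. Their summed level lay between 3412 and 4160 CPM (read counts scaled to a common library size with a correction for library composition) over all 10 rats. No tested row, and so no marker, differed at an adjusted p under 0.05 in edgeR. At an unadjusted p under 0.05, 0 of 8 neuron markers differed, where 9.86% of all tested rows did so in either direction. The summed level of 8 listed endothelial markers ran from 191.7 to 208.3 CPM in sham rats and from 169.9 to 350.9 CPM in stimulated rats, and 4 of them were higher at that threshold. Of the astrocyte markers, 4 of 7 were higher at that threshold, and their summed level ran from 3451 to 3923 CPM in sham rats and from 3519 to 8798 CPM in stimulated rats, highest in rats 7 (8798 CPM) and 10 (7646 CPM). Rat 9 (4709 CPM) was also above every sham rat. Microglial markers summed to 352.8 to 461.0 CPM in sham rats and were above that range in rats 7, 9 and 10 (635.7, 551.3 and 487.1 CPM), with 2 of 9 higher at that threshold. Dentate granule cell markers summed to 265.6 to 317.3 CPM in sham rats and were lowest in rats 7 (159.2 CPM) and 10 (205.6 CPM), with 0 of 4 past the threshold. In rat 9 they summed to 364.7 CPM, above every sham rat. Oligodendrocyte markers (0 of 8 past it) summed to 2677 to 3865 CPM in sham and 2203 to 3683 CPM in stimulated rats, and choroid plexus markers (1 of 5 higher) to 3.31 to 17.0 CPM and 6.70 to 34.7 CPM, highest in rat 10. All 11 immediate early genes, which neurons switch on within minutes of firing, were higher at that threshold, and their summed level was 155.7 to 196.6 CPM in sham rats against 205.1, 772.3, 145.1, 1798 and 721.6 CPM in rats 6 to 10. In tissue RNA, a change in the number of cells of a type and a change of RNA per cell cannot be told apart.

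None of the 5 counted genes differed between the groups at an adjusted p under 0.05 in the quasi-likelihood test of edgeR, as was so for every tested row (0% of 22447, lowest adjusted p = 0.376). At an unadjusted p under 0.05, 2 of 5 passed, Tet3 with a higher and Mbd3 with a lower level in stimulated rats, where 9.86% of all tested rows did so. No member had groups that did not overlap (0 of 5), against 1.29% of all rows. In direction, 3 members were higher (Dnmt1, Dnmt3a and Tet3) and 2 lower (Mbd2 and Mbd3) in stimulated rats, with a median log2 fold change of 0.14 against 0.01 over all tested rows.

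**Figure D1:**
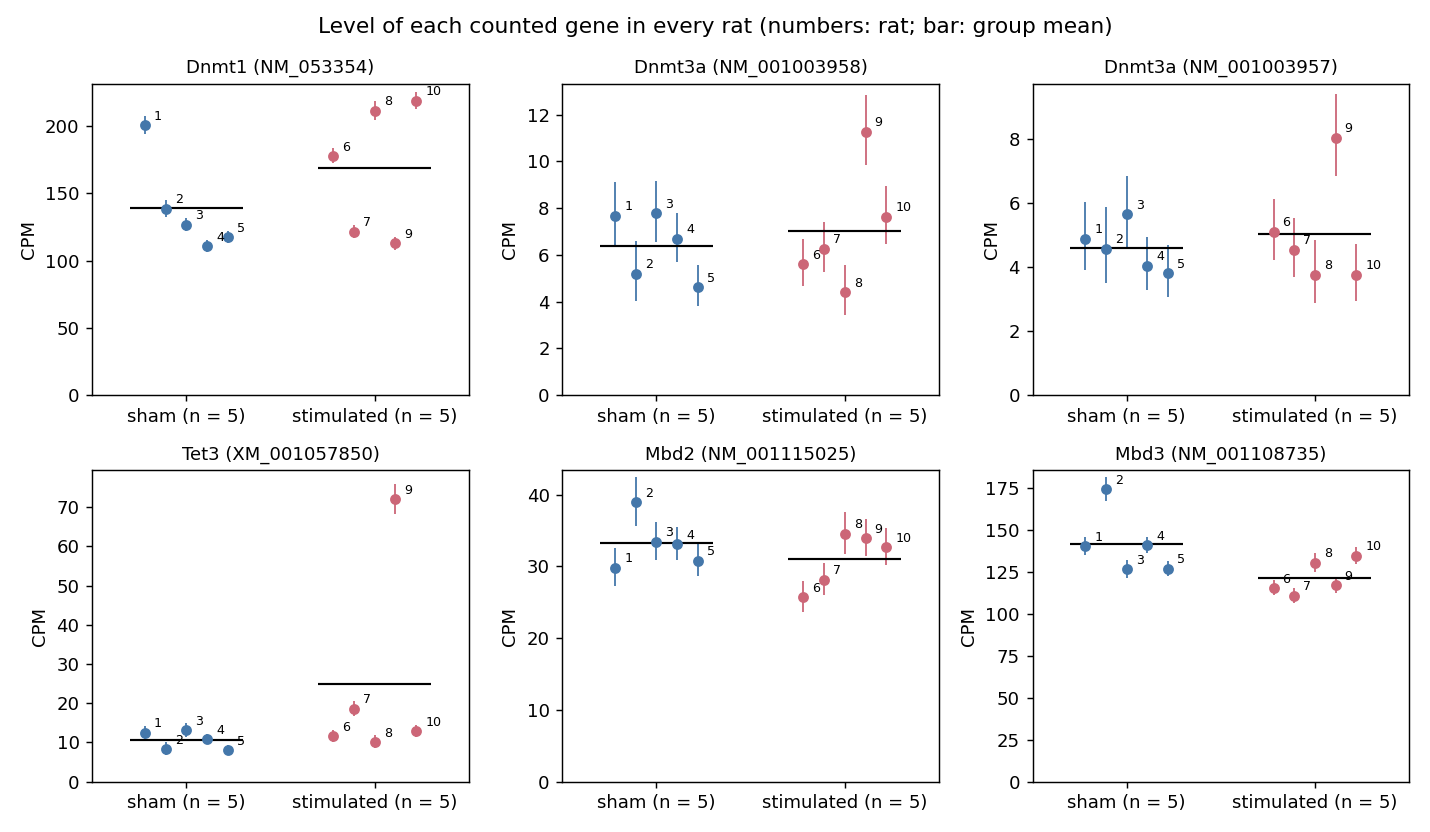
Level in CPM of each counted row in every rat (points, numbered by rat, with 95% Poisson intervals that cover counting error only) and the mean of each group of 5 rats (black bars). Tet3 in rat 9 stands at 72.1 CPM while the 9 other rats lie between 8.05 and 18.6 CPM, and the groups overlap in every panel.

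Tet3, a dioxygenase that oxidises methylcytosine and whose messenger is abundant in brain, had the largest fold change of the members. Its level (row XM_001057850) was 12.5, 8.32, 13.1, 10.9 and 8.05 CPM in sham rats 1 to 5 and 11.6, 18.6, 10.1, 72.1 and 12.8 CPM in stimulated rats 6 to 10. Rat 9 was far above the rest, rat 7 was also above each sham rat, and rats 6, 8 and 10 lay within the sham range. Means (± SD, n = 5 each) were 10.6 ± 2.33 CPM for sham and 25.03 ± 26.5 CPM for stimulated animals, while the medians were 10.9 and 12.8 CPM.

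The fitted log2 fold change of Tet3 was 1.24 (SE 0.474, 95% interval 0.23 to 2.26), with an unadjusted p of 0.0202 and an adjusted p of 0.427 in edgeR. Rat 9 set this value. Without rat 9 the log2 fold change was 0.33 (SE 0.203, unadjusted p = 0.129, adjusted p = 0.674), and with limma-voom on all rats it was 0.82 (SE 0.451, unadjusted p = 0.0894, adjusted p = 0.573). The unadjusted p in edgeR was also above 0.05 with a robust fit (0.0608, adjusted p = 0.533) and without sham rat 5 (0.0501, adjusted p = 0.613). The rat 9 value rested on 1413 reads, with a 95% Poisson interval of 68.4 to 75.9 CPM, and was 3.88 times the next highest rat and 6.82 times the sham mean.

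Rat 9 was not apart in most rows. Among 16865 rows with a mean count of at least 50, 15 were more than 3 times as high in rat 9 as in each other rat, and 11 of these carried a gene symbol. They included Tet3, Kdm6b, which encodes a histone H3K27 demethylase, Arc, an activity-regulated synaptic gene, Sik1, an activity-induced kinase gene, and Sox11, a transcription factor gene of young neurons. In the same count rat 7 had 51 such rows, among them Gadd45a and Gadd45g, and the other 8 rats had between 0 and 3.

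Of 10713 rows compared, Kdm6b had the pattern over the 10 rats most like Tet3 (Pearson r = 0.986 and Spearman rho = 0.879 on log2 CPM, n = 10), followed by Jmjd1c (r = 0.966), a gene of the JmjC demethylase family. The likeness rested in part on rat 9: without it, r was 0.899 for Kdm6b and 0.839 for Jmjd1c, and without rats 7 and 9, the farthest from the Tet3 median, it was 0.786 and 0.714. Kdm6b was at 19.0, 17.0, 19.6, 19.1 and 15.1 CPM in sham rats and 19.0, 35.6, 19.0, 144.4 and 25.1 CPM in stimulated rats. As for Tet3, rat 9 was the highest and rat 7 the second highest. For Kdm6b the log2 fold change was 1.44 (SE 0.486), with an adjusted p of 0.409 in edgeR. The summed level of the immediate early genes was also highest in rat 9, though Fos, at 106.3 CPM in rat 7, was at 50.3 CPM in rat 9. The unmapped share of rat 9 was 42.9%, as given above. The part of the early gene levels and of the unmapped share in the Tet3 value was not tested.

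**Figure D2:**
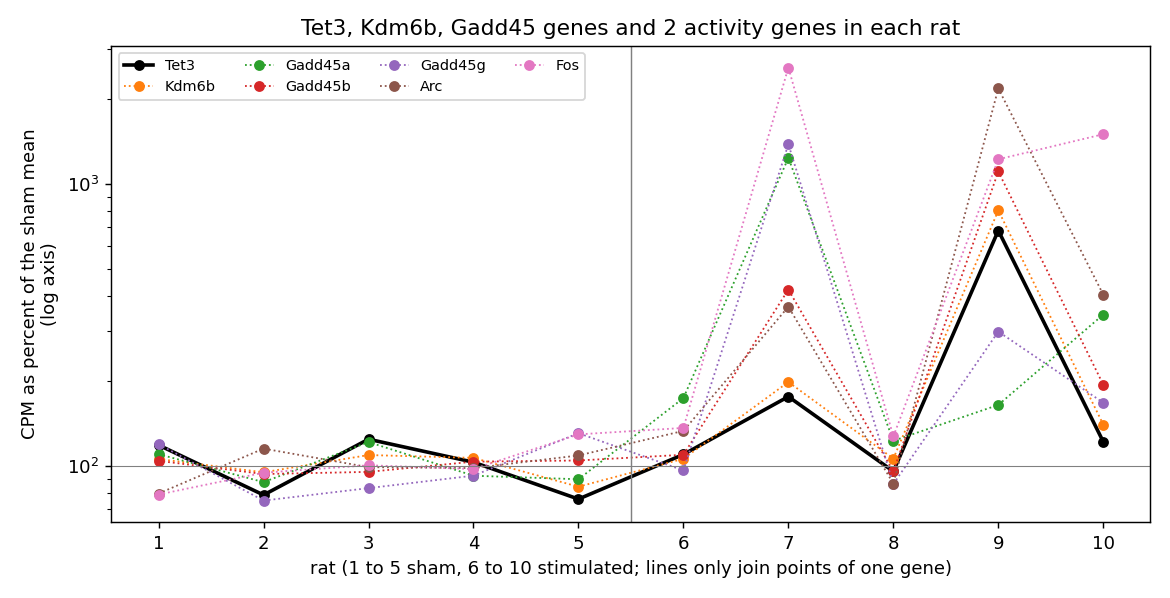
Level of Tet3, Kdm6b, Gadd45a, Gadd45b, Gadd45g and the activity genes Arc and Fos in each rat as percent of the sham mean of that gene, on a log axis; lines only join the points of 1 gene. Tet3, Kdm6b, Gadd45b and Arc peak in rat 9 (Tet3 at 682% and Gadd45b at 1104%), whereas Gadd45a, Gadd45g and Fos peak in rat 7 (Gadd45a at 1234%), and in rat 8 all 7 genes lie between 86.1% and 127%.

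Because Tet3 showed the widest spread, its annotated start regions were read from RefSeq (assembly GRCr8), as windows from 250 bases before to 50 bases after a start, 5′ to 3′ on the minus strand. A pair of them is shown, from the lowest and the highest count of CG pairs, so their unlikeness follows from the choice. CG pairs, the sites that TET and DNMT enzymes act on, are in capitals.
Tet3, chr4:117525446-117525745: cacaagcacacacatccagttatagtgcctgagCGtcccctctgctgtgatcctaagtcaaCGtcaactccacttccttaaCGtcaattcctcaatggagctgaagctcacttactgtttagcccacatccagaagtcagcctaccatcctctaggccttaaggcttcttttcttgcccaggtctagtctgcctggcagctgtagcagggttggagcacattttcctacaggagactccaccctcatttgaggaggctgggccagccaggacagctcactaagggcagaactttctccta
Tet3, chr4:117520996-117521295: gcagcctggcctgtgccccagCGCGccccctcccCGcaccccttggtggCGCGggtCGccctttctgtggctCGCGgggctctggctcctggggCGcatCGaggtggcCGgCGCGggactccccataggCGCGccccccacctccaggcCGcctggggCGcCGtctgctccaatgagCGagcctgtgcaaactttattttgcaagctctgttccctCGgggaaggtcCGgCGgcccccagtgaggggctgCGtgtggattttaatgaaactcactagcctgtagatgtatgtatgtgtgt
The first held 3 CG pairs and the second 23, where the median over 33469 windows of all genes was 7. The motif TGACG, contained in the cAMP response element TGACGTCA, was found on either strand 2 times in the first window and 0 times in the second, and 21.2% of all windows held it. The full element (1.83% of all windows) and the AP-1 motif TGANTCA (7.33%) were searched on both strands too and were found in neither window. The other Tet3 windows were chr4:117525445-117525744, which overlaps the first (3 CG pairs, TGACG 2 times), and chr4:117506953-117507252 (15 CG pairs, TGACG 0 times). These matches describe letters only, and which start gave rise to the counted Tet3 transcript is not known from the files. Of the 9 members, 8 had windows (15 in all, none for Dnmt3b), with 3 to 39 CG pairs, and 11 of the 15 were above the median.

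Dnmt1, which encodes the maintenance methyltransferase, was at 200.6, 138.6, 126.7, 110.9 and 117.3 CPM in sham rats 1 to 5 and at 177.9, 121.6, 211.6, 112.8 and 219.1 CPM in stimulated rats 6 to 10 (row NM_053354). Rats 8 and 10 were above all sham rats, sham rat 1 was higher than rat 6, and rats 7 and 9 lay within the lower sham values. Means (± SD, n = 5 each) were 138.8 ± 36.1 and 168.6 ± 49.5 CPM. This gave a log2 fold change of 0.28 (SE 0.202, 95% interval -0.15 to 0.72, adjusted p = 0.667 in edgeR), within the spread between rats. Leaving out each rat in turn moved it between 0.17 and 0.44, and the highest value, the only one of the 10 with an unadjusted p under 0.05 (0.0359), was without sham rat 1.

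The spread of Dnmt1 within each group followed that of Bc1 (NR_036653), a short non-coding RNA of neuronal dendrites transcribed by RNA polymerase III. Bc1 was examined after the values of the members had been seen. As background, the ID elements, short interspersed repeats spread over many rat genes, derive from Bc1. Over the 10 rats, log2 CPM of Dnmt1 and of Bc1 had r = 0.988 and rho = 0.964, and r = 0.977 without rats 8 and 10, the farthest from the Dnmt1 median.

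The rats fell into a lower and a higher range of Bc1, so the relation was also taken within the larger of these. This split was made on the Bc1 values, so neither it nor the ratio below is evidence apart from the r above. In 6 rats, 4 sham and 2 stimulated, Bc1 was between 3836 and 5261 CPM, and r was 0.874 and rho 0.886 among them. In the 4 others, rat 1 of the sham group and rats 6, 8 and 10, Bc1 was between 7195 and 8540 CPM. For each 100 reads on Bc1 there were 2.70, 2.63, 3.01, 2.89 and 2.94 reads on Dnmt1 in sham rats and 2.47, 2.62, 2.48, 2.74 and 2.58 in stimulated rats. This ratio differed by at most 1.22 times over the 10 rats, against 2.23 times for Bc1 and 1.98 times for Dnmt1 in CPM. The same ratio for Mbd3 differed by 2.40 times. The r of the other members with Bc1 ran from -0.26 to 0.10 for the used rows, with -0.34 for the second Dnmt3a row.

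**Figure D3:**
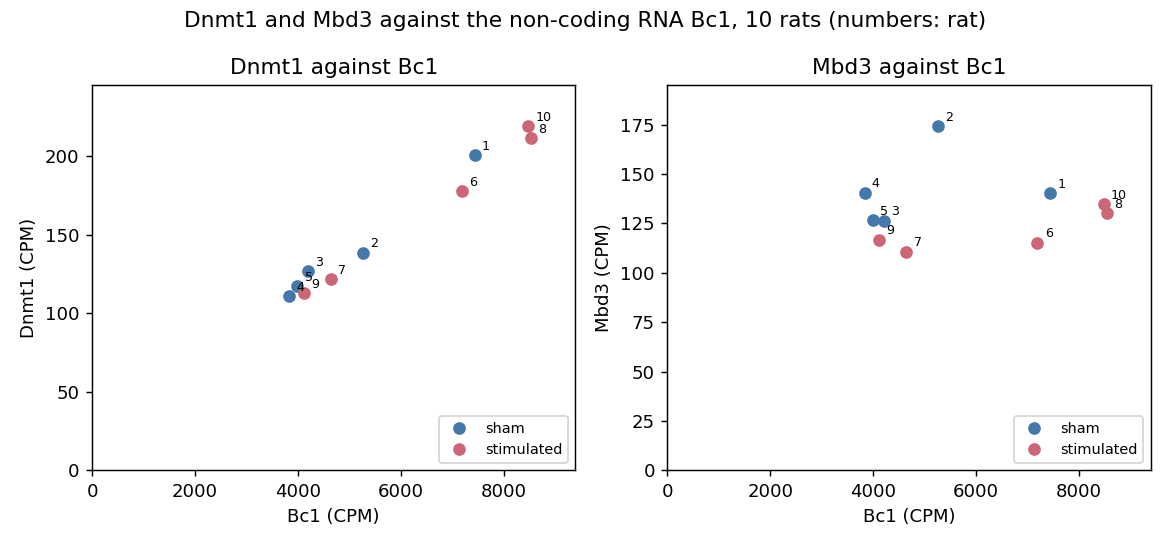
Dnmt1 (left) and Mbd3 (right) against Bc1, each in CPM, with 1 point per rat, numbered by rat and coloured by group. Dnmt1 is higher where Bc1 is higher in both groups, from 110.9 CPM in rat 4 to 219.1 CPM in rat 10, whereas Mbd3 follows no such line (r = 0.10).

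Dnmt1 shared this pattern with genes of unlike function. By r over the 10 rats, the nearest of 10713 compared rows were Ppef2 (0.996), a calmodulin-binding phosphatase gene of sensory neurons, and Sec14l3 (0.994), a lipid-binding protein gene. In all, 23 rows had an r over 0.95 with Dnmt1, Bc1 and 22 others. The others included Piwil1, known from the germ line, Blk, a kinase gene of B cells, and Nr1h4, the bile acid receptor of liver and gut. Of the 23 rows, Bc1 included, all had a positive log2 fold change, from 0.19 to 0.43, a direction that their likeness to Dnmt1 fixes. The 22 others had mean counts between 2051 and 3757 reads, a range that held 7.58% of the compared rows, whose median mean count was 521.1. The mean count of Dnmt1 (2939) lay within it. What share of the reads on the Dnmt1 row came from repeats related to Bc1 was not tested, since no transcript sequence or read position was used here.

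Dnmt3a, which encodes the main de novo methyltransferase of mature neurons, was counted on a pair of rows. On the used row, NM_001003958, it was at 7.68, 5.19, 7.78, 6.70 and 4.61 CPM in sham rats and 5.61, 6.27, 4.41, 11.3 and 7.64 CPM in stimulated rats. Rat 9 was the highest and rat 8 the lowest, so the stimulated rats spanned the whole sham range. Fitted over all rats, the log2 fold change was 0.14 (SE 0.241, 95% interval -0.38 to 0.66, adjusted p = 0.885 in edgeR), and without rat 9 it turned to -0.09 (SE 0.209).

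The other Dnmt3a row, NM_001003957, was at 4.89, 4.58, 5.66, 4.05 and 3.81 CPM in sham rats and 5.11, 4.55, 3.77, 8.06 and 3.77 CPM in stimulated rats. Its log2 fold change was also 0.14 (SE 0.220, adjusted p = 0.870), and rat 9 was again the highest. Both rows rest on few reads, with mean counts of 131.2 and 93.8, and how a read shared by transcripts of 1 gene was assigned is not stated. Their r with each other was 0.744, and 0.442 without rat 9. The patterns most like the used row were those of Elfn1 (r = 0.954), a synaptic adhesion gene, and Galc (r = 0.908), a lysosomal galactosylceramidase gene. With rats 8 and 9 left out these fell to 0.892 and 0.747.

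Mbd3, the NuRD subunit, was the only member other than Tet3 with an unadjusted p under 0.05, and its values were lower in stimulated rats. The level (row NM_001108735) was 140.3, 174.3, 126.5, 140.7 and 126.7 CPM in sham rats and 115.3, 110.6, 130.3, 116.8 and 134.6 CPM in stimulated rats. Rats 6, 7 and 9 lay below every sham rat and rats 8 and 10 lay within the sham range, while sham rat 2 stood above the rest. Sham animals averaged 141.7 ± 19.5 CPM and stimulated animals 121.5 ± 10.4 CPM (SD, n = 5 each). Their log2 fold change was -0.22 (SE 0.101, 95% interval -0.44 to -0.00), with an unadjusted p of 0.0464 and an adjusted p of 0.494 in edgeR. The sign was the same with each rat left out (-0.27 to -0.14), and the unadjusted p was under 0.05 in 4 of these 10 fits and highest, at 0.133, without sham rat 2.

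Mbd2, which encodes the methyl-CG binding subunit of NuRD, was at 29.8, 38.9, 33.5, 33.1 and 30.8 CPM in sham rats and 25.7, 28.2, 34.5, 34.0 and 32.7 CPM in stimulated rats (row NM_001115025). Rats 6 and 7 lay just below the sham range and the other stimulated rats inside it. Its log2 fold change was -0.10 (SE 0.112, 95% interval -0.34 to 0.14, adjusted p = 0.802 in edgeR), an interval that leaves room for a fall of 0.34 or a rise of 0.14 on the log2 scale. Nearest in pattern to Mbd2 were Prr7 (r = 0.949) and Bag6 (r = 0.926), and to Mbd3 Qpctl (r = 0.961) and Osbpl5 (r = 0.95). Neither MBD gene was nearest to the other.

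**Figure D4:**
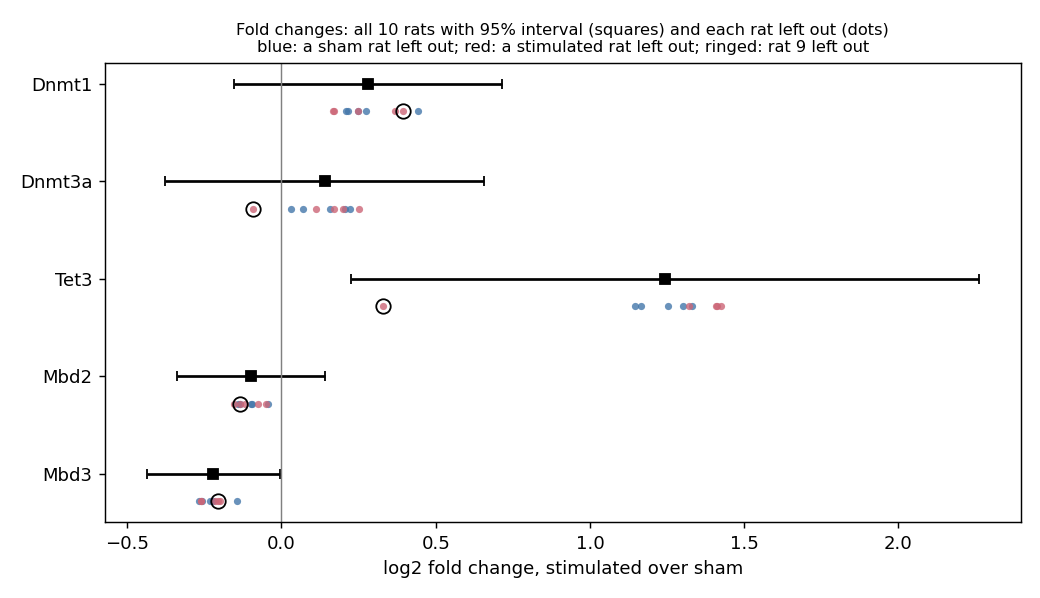
Log2 fold change of stimulated over sham rats for the 5 counted members, with 95% intervals from all 10 rats (squares) and the values with each rat left out in turn (dots; blue where a sham rat, red where a stimulated rat was left out; rat 9 ringed). The ringed dot of Tet3 falls from 1.24 to 0.33 and that of Dnmt3a from 0.14 to -0.09, whereas the dots of Mbd3 stay between -0.27 and -0.14.

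The wider pathway was read from 6 lists of 74 genes, of which 66 had a row and 59 were tested. None passed an adjusted p under 0.05 in edgeR (0% of all tested rows), and 3 passed an unadjusted p under 0.05, all with higher levels in stimulated rats: Gadd45a, Gadd45b and Gadd45g (9.86% of all tested rows passed). Of the 59, 28 were higher and 31 lower, with a median log2 fold change of -0.00 against 0.01 over all tested rows, and 1 of 59, Gadd45a, had groups that did not overlap, against 1.29% of all rows.

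**Figure D5:**
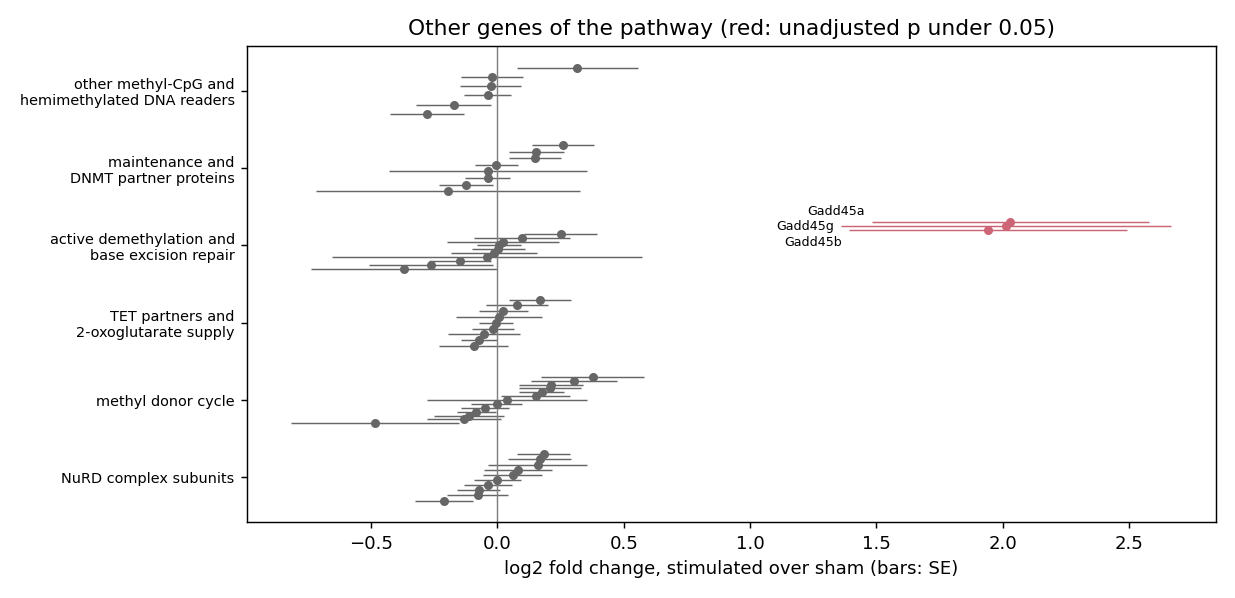
Log2 fold change of stimulated over sham rats (points, with SE bars) for the 59 tested genes of the 6 lists, 5 rats per group; red marks an unadjusted p under 0.05. Gadd45a, Gadd45b and Gadd45g lie near 2, and the other genes between -0.48 and 0.38.

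The 3 Gadd45 genes, stress and activity-induced genes whose proteins take part in active demethylation, stood out in the list of active demethylation and base excision repair (13 tested, 8 higher and 5 lower). Gadd45a (NM_024127) was at 3.55, 2.82, 3.92, 2.98 and 2.89 CPM in sham rats and 5.61, 39.9, 3.96, 5.30 and 11.1 CPM in stimulated rats. Every stimulated rat was above every sham rat, although rat 8 lay barely above sham rat 3, and rat 7 was far above the others. It had a log2 fold change of 2.03 (SE 0.548, unadjusted p = 0.00243, adjusted p = 0.376) and 1.00 without rat 7.

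Gadd45b (NM_001008321) was at 9.95, 8.93, 9.09, 9.88 and 9.97 CPM in sham rats and 10.5, 40.3, 9.13, 105.6 and 18.5 CPM in stimulated rats. Rat 9 was the highest and rat 8 within the sham range. Its log2 fold change was 1.94 (SE 0.549, adjusted p = 0.380) and 1.04 without rat 9. Gadd45g (NM_001077640) was at 4.596, 2.90, 3.21, 3.56 and 5.03 CPM in sham rats and 3.71, 53.2, 3.32, 11.5 and 6.45 CPM in stimulated rats. Rat 7 was the highest, rat 9 next, and rats 6 and 8 lay within the sham range. The fitted value was 2.02 on the log2 scale (SE 0.654, adjusted p = 0.399) and 0.68 without rat 7. The glycosylase gene Tdg, which excises the bases that TET proteins make, averaged 39.5 ± 2.56 CPM (sham) and 46.9 ± 11.6 CPM (stimulated, SD, n = 5 each; log2 fold change 0.25, SE 0.144, adjusted p = 0.576), and Apobec1, a cytidine deaminase gene, had the lowest value of this list (-0.37, SE 0.369). With limma-voom the log2 fold changes were 1.49 for Gadd45a, 1.33 for Gadd45b and 1.22 for Gadd45g, and Gadd45g no longer passed the unadjusted threshold (unadjusted p = 0.0949, adjusted p = 0.579). Gadd45a and Gadd45g were highest in rat 7 and Gadd45b in rat 9. Rats 7, 9 and 10 all had the raised summed levels of immediate early genes and of astrocyte markers given above, the latter least raised in rat 9. Rat 10 was lower than rats 7 and 9 for Gadd45b and Gadd45g. The part of these marker and early gene levels in the Gadd45 values was not tested.

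In the methyl donor list 7 of 13 tested genes were higher and 6 lower, and none passed the unadjusted threshold with all rats. The highest was Mat2a, which encodes the enzyme that makes the methyl donor S-adenosylmethionine outside the liver (log2 fold change 0.38, SE 0.205, adjusted p = 0.557), and the lowest was Tyms, the thymidylate synthase gene (-0.48, SE 0.332, adjusted p = 0.648).

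For the partners of the members no gene passed the unadjusted threshold with all rats. Among other readers, 1 of 6 was higher and 5 lower, from Zbtb33, which encodes the methyl-CG binding protein Kaiso (0.32, 95% interval -0.20 to 0.83), to Zfp57, a reader of imprinted regions (-0.28, SE 0.147, adjusted p = 0.549). Among maintenance factors and DNMT partners, 3 of 8 were higher and 5 lower, from Pcna, the replication clamp (0.26, SE 0.123, adjusted p = 0.516), to Hells, a remodeller of methylated DNA (-0.20, 95% interval -1.32 to 0.93), whose mean count was 8.7 reads. Pcna passed an unadjusted p of 0.05 with library size alone and without rat 6, 8 or 10, and Zfp57 without rat 6 or rat 8.

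In the list of TET partners and 2-oxoglutarate supply 4 of 9 were higher and 5 lower, between -0.09 (SE 0.137) for D2hgdh, a 2-hydroxyglutarate dehydrogenase gene, and 0.17 (SE 0.122) for Cxxc5, which encodes a CXXC-domain partner of TET proteins. Cxxc5 was set apart in sham rat 2, at 97.9 CPM with the next sham rat at 79.4 CPM. Ogt, the glycosyltransferase that binds TET proteins, averaged 110.9 ± 13.5 CPM (sham) and 112.7 ± 8.83 CPM (stimulated, SD, n = 5 each; log2 fold change 0.02, 95% interval -0.18 to 0.23). Of the NuRD subunits other than Mbd2 and Mbd3, 5 of 10 were higher and 5 lower, from Cdk2ap1 (0.18, SE 0.107) to Chd5, a neuronal remodeller (-0.21, SE 0.116, adjusted p = 0.562), which passed the unadjusted threshold without sham rat 5 or without rat 6.

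As background, Dnmt1 copies the mark after DNA replication. The summed level of 10 listed genes of proliferation and new neurons was 70.9 to 75.7 CPM in sham rats and 70.5, 73.9, 61.5, 86.9 and 62.7 CPM in rats 6 to 10. Of the 10 genes, 8 were higher in stimulated rats. At an unadjusted p under 0.05 in edgeR 1 was higher and 1 lower, where 9.86% of all tested rows passed. The sum includes Sox11, a gene of young neurons that was more than 3 times as high in rat 9 as in each other rat. The sum was lowest in rats 8 and 10, in which Dnmt1 was highest, and highest in rat 9, in which Dnmt1 was lowest among the stimulated rats. Bc1, which the Dnmt1 row followed, was also highest in rats 8 (8540 CPM) and 10 (8484 CPM). Among the stimulated rats Bc1 was likewise lowest in rat 9 (4120 CPM). The order of Dnmt1 against the sum is a description over 5 rats, and no test of it was made. Whether it is an order of the Dnmt1 messenger or of Bc1 was not tested.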

How the data were processed

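The files held raw counts, which the authors deposited as whole numbers of reads per transcript and rat with no normalization. Per the methods of the study and the labels, poly(A) RNA was read in single reads of 36 cycles, aligned to the rn4 build with BWA and counted with a custom script. The methods name an Ensembl annotation, but the rows carry RefSeq identifiers, and the handling of strand and of reads that fit several transcripts is not stated. Short reads that fit several places can therefore add to the count of a gene. Symbols came from the RefSeq table of GRCr8, for names alone, and 1 row per symbol was used, the one with the highest mean count.

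Groups came from the labels. For mRNA in this comparison the methods count 5 control and 4 stimulated animals, whereas the labels give 5 per group. Which stimulated rat the methods do not count is not stated, so all 10 were kept and each was left out in turn. Rows with a summed count below the 30th percentile (46 reads) were left out, which left 22447. Stimulated rats were compared with sham rats by the quasi-likelihood test of edgeR 4.0.16 (R 4.3.3) with TMM factors and without covariates, and p-values were adjusted by the Benjamini-Hochberg method across the tested rows. CPM used the TMM-scaled library sizes. Log2 CPM (prior count 2) served for the likeness between genes, as a Pearson r over 10 rats among rows with a symbol and a mean count of at least 50. Intervals of single levels are 95% Poisson intervals and cover counting error only. The steps were tested on simulated data. Reads listed as unmapped were set aside, and ribosomal RNA records held 1.82% to 12.2% of the counts summed over all rows.

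Named were all members, the genes of the 6 pathway lists with an adjusted or unadjusted p under 0.05, the highest and lowest log2 fold change of each list, and the 2 rows most like each member. Bc1, Kdm6b levels, Tdg, Ogt and the other genes named beside Dnmt1 and rat 9 were chosen after their values were seen. The members and lists were chosen with earlier results of these data known. A few genes of the lists are not reported here and were left out of the list counts. The alternatives were other scalings (RLE, upper quartile, library size alone), other filters, other tests (likelihood ratio and exact tests of edgeR, DESeq2 1.42.0, voom of limma 3.58.1, robust and adjusted-deviance fits), summed rows, no ribosomal RNA records, and each rat left out.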

Additional observations from a re-analysis of the deposited data

Results flagged for a closer look

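In 40 groups of 5 rats (the members' rows and the named pathway genes), the gap between the highest or lowest rat and its neighbour was compared with the whole range of the group, by Dixon's criterion of 0.71. Chance passes it in about 1 group of 20, but the pathway genes were named for a low p or an extreme fold change, which 1 distant rat can give, so that share does not apply to these groups. There were 5 groups past it. Tet3 in stimulated rat 9 lay at 72.1 CPM with the next rat at 18.6 CPM, a gap of 0.863 of the range. Gadd45a in stimulated rat 7 lay at 39.9 CPM with the next at 11.1 CPM (0.801), and Gadd45g in the same rat at 53.2 CPM with the next at 11.5 CPM (0.836). Cdk2ap1, a NuRD subunit gene, lay in sham rat 1 at 69.3 CPM with the next at 60.6 CPM (0.81). Cxxc5, a TET partner gene, lay in sham rat 2 at 97.9 CPM with the next at 79.4 CPM (0.817).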

How the results depend on the processing

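No member passed an adjusted p under 0.05 in any of the 23 alternatives, 10 of which left out 1 rat each. Over all rows, 119 passed with the likelihood ratio test, 90 with the exact test and 33 with DESeq2, and 0 in the others. The number of members at an unadjusted p under 0.05 was 1 in place of 2 in 5 settings (library size alone, likelihood ratio test, exact test, voom, robust fit). Mbd3 lost its call with library size alone and with the likelihood ratio and exact tests, and Tet3 with voom and the robust fit. With a rat left out the number was 0 to 2, and it was 0 without rat 9. Voom lowered the log2 fold changes of Tet3 to 0.82, Gadd45a to 1.49, Gadd45b to 1.33 and Gadd45g to 1.22, and Tet3 (unadjusted p = 0.0894, adjusted p = 0.573) and Gadd45g (unadjusted p = 0.0949, adjusted p = 0.579) lost their unadjusted call. With a rat left out, the log2 fold change of Dnmt3a ran from -0.093 (without rat 9) to 0.25, and that of Hells from -0.47 to 0.06 (without rat 1), with 0.05 without rat 7. Of the pathway genes, 2 passed an adjusted p under 0.05 with the likelihood ratio test (Gadd45a, adjusted p = 0.0381, and Gadd45b, 0.0492) and 1 with the exact test (Gadd45a, 0.0436). With a rat left out, 2 to 8 of them passed an unadjusted p under 0.05, where 3 did with all rats: 8 without rat 6, 7 without rat 8 and 8 without rat 10; it was 5 with library size alone and 2 with voom. Gadd45g was at an unadjusted p of 0.0563 (adjusted p = 0.678) without rat 7. Pcna, Zfp57 and Chd5 came under an unadjusted p of 0.05 in the settings named beside them. So did Mat2a without rat 8 (0.0323 in edgeR) or rat 10 (0.0276), and Cdk2ap1 without rat 8 (0.0468). The causes of these shifts were not tested, apart from the rats left out. Summing both Dnmt3a rows raised its group means to 10.99 CPM (sham) and 12.09 CPM (stimulated). The other named genes kept their direction and stayed on the same side of an adjusted p of 0.05. No paired analysis was possible because the labels give every rat its own number and no number is shared between groups. Depth limits Dnmt3a and Hells, with mean counts of 131.2 and 8.7 reads.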
